A study of Mus musculus with 8 samples.

Results

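The Socs1 and Ciita locus is described here as all features that 8 peak lists hold between positions 10350000 and 10750000 of mouse chromosome 16 (mm8, as are all coordinates of listed features). The window was chosen by measured values, with earlier results of these data known: it holds position 10698566, where RNA polymerase II (Pol II) of stimulated macrophages had a tall peak at 2 h that was called new against untreated cells. It is taken as Socs1, and Ciita lies lower in coordinate. The window held 158 of the 364537 listed features, clusters that cross its edge included.

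The lists come from chromatin immunoprecipitation and sequencing (ChIP-seq) of macrophages grown from the bone marrow of female Fvb mice of 6 to 8 weeks. Cells were untreated (0 h) or were stimulated with the bacterial component lipopolysaccharide together with the cytokine interferon gamma. Pol II was mapped at 0, 2 and 4 h, the promoter mark H3K4me3 and the Polycomb mark H3K27me3 at 0 and 4 h, and Jmjd3, the demethylase of lysine 27 of histone H3, at 2 h. Each antibody and time was 1 library, so there is no replicate check and no p-value, and the labels do not say how many mice were pooled. The lists carry no gene names, and the cell type was not checked against markers.

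Socs1, suppressor of cytokine signalling 1, is a feedback inhibitor: cytokines such as interferon gamma switch it on, and its protein blocks the Janus kinases that carry their signal. Ciita is the class II transactivator, a coactivator that does not bind DNA itself and without which MHC class II genes are hardly transcribed. Macrophages make it in response to interferon gamma, and its gene has several alternative promoters. H3K4me3 marks promoters that are active or can become so, and H3K27me3 marks silenced chromatin.

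The RefSeq promoter of Socs1 is shown because the window's tallest Pol II and Jmjd3 positions lay at the site taken as Socs1. It covers 250 bases before to 50 bases after the gene's start, chr16:10785487-10785786 on the minus strand of GRCm38.p6, which is another build than that of the lists, so no listed position was placed on it. Capitals mark a pair of overlapping matches to an element that interferon regulatory factors bind (GAAA, then any 2 bases, then GAAA), at bases 168 to 177 and 174 to 183 of the printed run.
Socs1 promoter: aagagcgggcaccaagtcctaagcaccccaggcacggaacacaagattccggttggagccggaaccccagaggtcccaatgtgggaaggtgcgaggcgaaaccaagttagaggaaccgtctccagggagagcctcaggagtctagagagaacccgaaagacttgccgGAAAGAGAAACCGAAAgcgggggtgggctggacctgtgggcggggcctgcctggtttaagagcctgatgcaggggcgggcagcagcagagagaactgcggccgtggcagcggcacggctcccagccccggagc

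Of 32851 RefSeq mouse promoters of the same length, 3.44% held at least 1 match to this element on either strand and 0.225% held 2 or more. The Socs1 promoter also held CCAAT once, at bases 76 to 80, as did 37.4% of all promoters. It held no match to the NF-kappaB consensus (8.46% of promoters) or to TATAAA (13.6%). Its G and C content was 63.3%, against a median of 52.7%, and it held 18 CpG, against a median of 7. A match describes letters in this stretch and is not a measured binding site. The table had no promoter of Ciita.

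Along the window the features fell into 8 blocks, with a new block wherever neighbouring features of any list lay over 10 kb apart. The tallest Pol II position of each time and every Jmjd3 position lay in the block that holds Socs1. H3K27me3 was listed in a stretch on the Ciita side and in another around and above Socs1. Between them H3K27me3 was not listed for 255 kb at 0 h and 246 kb at 4 h. The longest stretch without any listed feature ran for 112 kb from 10477803 to 10590189.

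**Figure D1:**
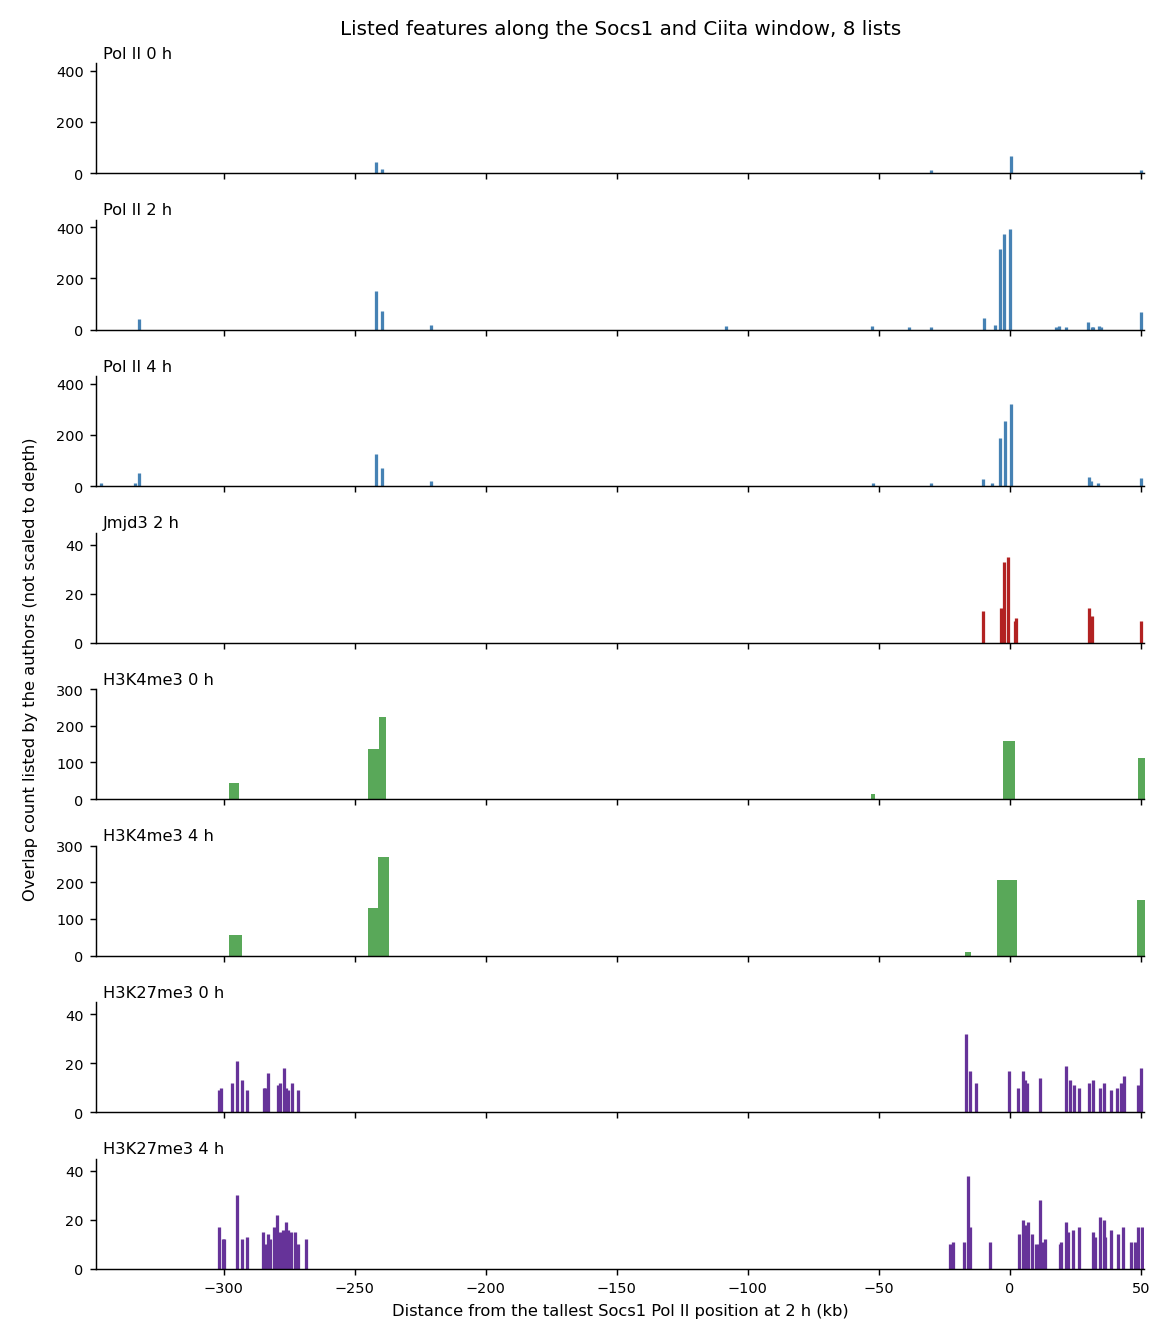
Overlap counts of all listed features along the window, 1 panel per list, against the distance in kb from the Socs1 Pol II position of 2 h. Lines are single positions and bars are H3K4me3 clusters drawn from start to end, and the tallest Pol II of each time is at the Socs1 position, with counts of 66, 392 and 319 at 0, 2 and 4 h.

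Each value below is the overlap count that the authors listed for a feature. These counts were not scaled to depth, and depth was given only as over 10000000 uniquely mapped tags per library. Counts of different lists are therefore set side by side, and no fold between them is given. By list, the window held 9 Jmjd3 positions, 6 H3K4me3 clusters at each time, 39 and 54 H3K27me3 positions at 0 and 4 h, and 5, 22 and 17 Pol II positions at 0, 2 and 4 h. Across 6571 tiles of 400 kb that cover the genome, the median tile held 0 Jmjd3 positions, 2 and 1 H3K4me3 clusters, 2 H3K27me3 positions at each time and 1 Pol II position at each time. The window had more Jmjd3 positions than 99.4% of tiles, and more Pol II positions than 65.5% at 0 h, 86.8% at 2 h and 84.0% at 4 h. It had more H3K27me3 positions than 93.3% of tiles at 0 h and 92.5% at 4 h. It was picked for its Pol II and these ranks are a description.

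At Socs1, untreated cells had 1 Pol II position, 10699067, with a count of 66. That count ranked 2920 in a list of 55600, and it was the tallest of the 5 Pol II positions of untreated cells in the window. Pol II was thus listed at Socs1 before stimulation.

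At 2 h, 3 tall Pol II positions were listed over less than 4 kb. They were 10694805 with a count of 314, 10696255 with 375 and 10698566 with 392. In their list of 57200 they ranked 109, 25 and 13. The highest count anywhere in that list was 402. Positions with lower counts lay lower in coordinate, at 10688572 (47) and 10693001 (19).

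At 4 h, 3 tall positions were again listed, with counts of 189 at 10694760, 255 at 10696610 and 319 at 10699032. They lay 45, 355 and 466 bp from those of 2 h. These ranked 819, 273 and 88 of 57513. The lower positions were 10688517 (29) and 10691881 (11). At both times the tallest of the 3 was the one highest in coordinate and the lowest was the one lowest in coordinate. Socs1 is transcribed from the minus strand, so the gene runs toward lower coordinates.

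The position at the 2 h maximum sat closer to the call threshold than its height shows. Positions less than 500 bp apart counted as the same, and 10698566 lay 501 bp from the untreated position 10699067. It was therefore called new at 2 h, and the untreated position was called lost. At 4 h the tallest position, 10699032, lay 35 bp from the untreated one and was called kept. With positions within 1 kb counted as the same, the 2 h position was kept and no untreated Pol II position of the window was lost at 2 h. The other tall positions had no such neighbour. They lay 2812 and 4262 bp from the untreated position at 2 h and 2457 and 4307 bp at 4 h.

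**Figure D2:**
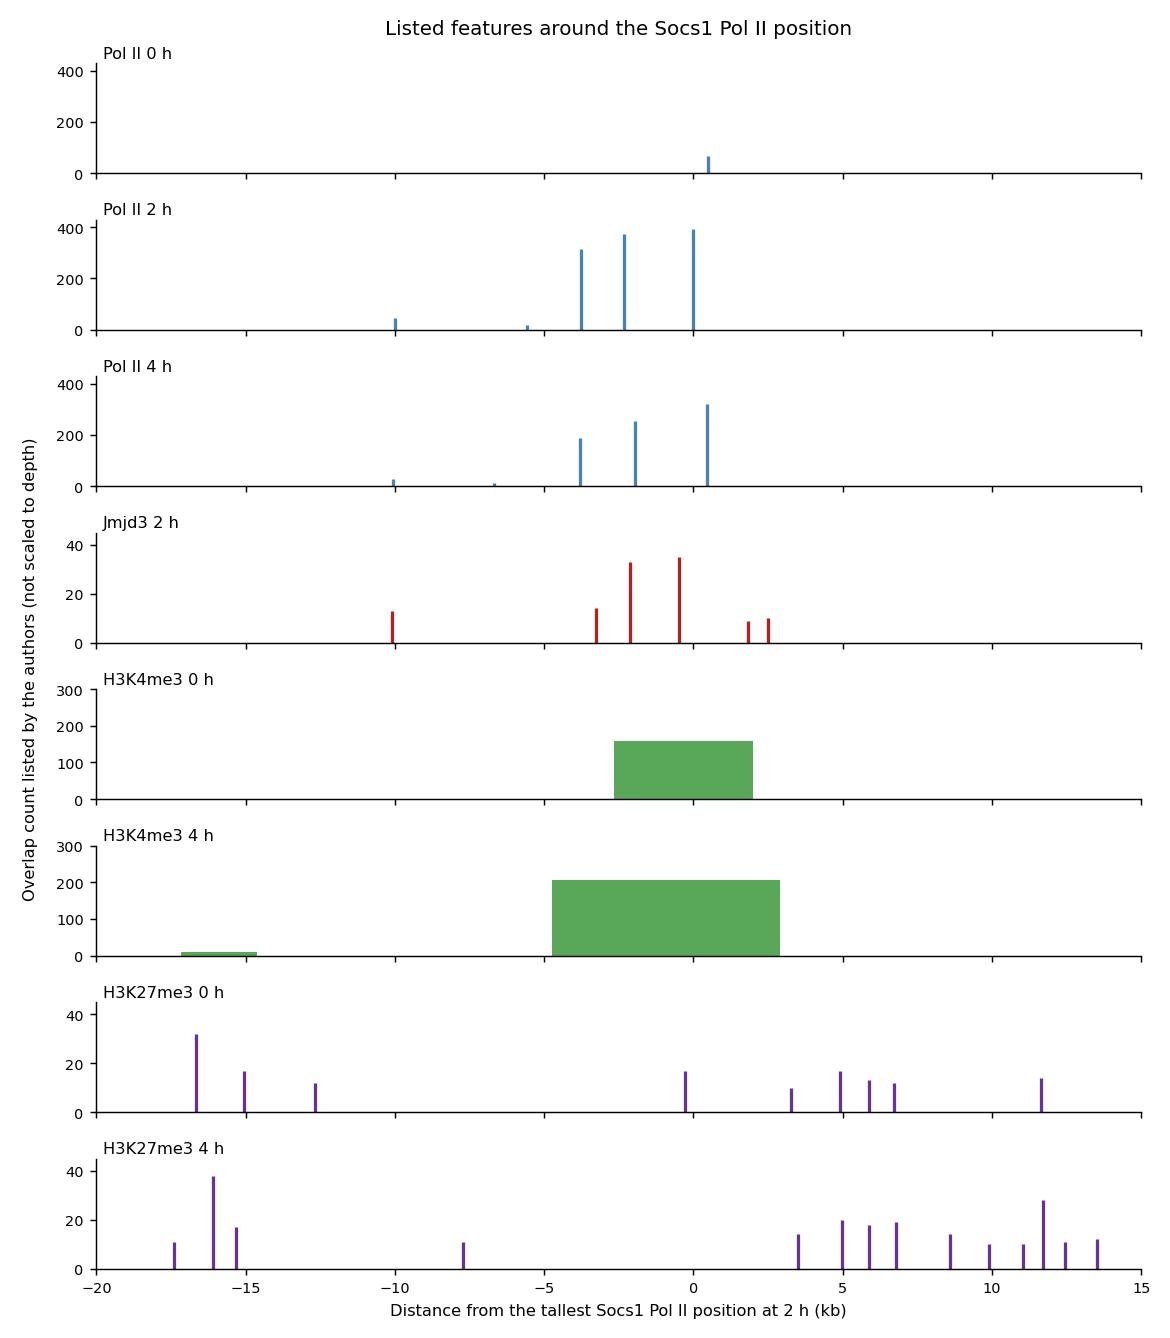
Overlap counts of listed features from 20 kb below to 15 kb above the Socs1 Pol II position of 2 h, 1 panel per list, with lines for positions and bars for H3K4me3 clusters. Inside the bounds of the 4 h H3K4me3 cluster, Pol II has 1 position at 0 h and 3 at 2 h and at 4 h. The narrower 0 h cluster holds 1 at 0 h and 2 at 2 h and at 4 h. The H3K27me3 position of count 17 at 0 h lies in each of these clusters and has no counterpart at 4 h.

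H3K4me3 was already present at Socs1 in untreated cells and its cluster was wider at 4 h. The cluster spanned 10695918 to 10700557 at 0 h (4640 bp, count 158) and 10693815 to 10701482 at 4 h (7668 bp, count 206). It reached 2103 bp further on the lower side and 925 bp further on the upper side. The added lower part held the Pol II positions 10694805 and 10694760 of 2 and 4 h. Among 17651 cluster pairs that overlapped one to one between the times, the median difference in width was -75 bp, and 136 pairs (0.770%) widened by at least the 3028 bp of Socs1. Cluster edges also depend on depth and on the authors' threshold, whose part was not tested.

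Jmjd3 had 6 positions from 10688466 to 10701055, 5 of them inside the H3K4me3 cluster of 4 h. The tallest were 10698092 with a count of 35 and 10696453 with 33, ranking 91 and 104 of 4398. They lay 474 bp and 198 bp from the Pol II positions 10698566 and 10696255 of 2 h. Position 10695288 (14) lay 483 bp from Pol II position 10694805, and 10688466 (13), outside the cluster, lay 106 bp from 10688572. Positions 10700400 (9) and 10701055 (10), at the upper end of the cluster, overlapped no Pol II position at any time. Each tall Pol II position of 2 h thus had a Jmjd3 position less than 500 bp away, though the distances of 474 and 483 bp were near that limit. How often other Pol II positions had Jmjd3 as near was not tested.

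Further up, Jmjd3 was listed at 10728793 (14), 10729959 (11) and 10748811 (9). The last, whose count was the lowest in the Jmjd3 list, overlapped a feature of all 7 other lists. In all, 7 of the 9 Jmjd3 positions overlapped Pol II at 2 h (77.8%, exact 95% interval 40.0 to 97.2), against 80.7% of the whole Jmjd3 list. H3K4me3 at 4 h overlapped 6 of 9 (66.7%, 29.9 to 92.5), against 84.0%. Both shares are near their background. H3K27me3 of untreated cells overlapped 4 of 9 (44.4%, 13.7 to 78.8), against 12.0% of the list. All 9 lay in a block with 23 H3K27me3 positions at 0 h, and the window held more of these than 93.3% of tiles. The share to be expected at such a density was not tested, so no link of Jmjd3 to H3K27me3 is read from this. Among features above their list's median, H3K27me3 of untreated cells overlapped 2 of 6 Jmjd3 positions. In lists of equal length this mark overlapped 0 of 9, an outcome fixed in advance. That setting kept 4398 H3K27me3 positions, and the window's tallest, with a count of 32, ranked 5621. The intervals above cover counting error only, and neighbouring positions are not independent.

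The H3K27me3 positions of untreated cells at Jmjd3 did not all have a counterpart at 4 h: 2 of the 4 had none, in a list where 28.3% of all positions had none, and 4 positions are too few to read against that share. Position 10698290 (17) lay inside the Socs1 H3K4me3 cluster, 198 bp from the Jmjd3 position of count 35, and the nearest 4 h position was 3771 bp away at 10702061. Position 10728701 (12), beside the Jmjd3 position 10728793, had its nearest 4 h position 1627 bp away. The remaining positions were kept. Position 10730269 (13) had 10730328 (15) at 4 h, and 10748770 (18) had 10748954 (17). The 4 h list held no H3K27me3 position for 11.2 kb, from 10690856 to 10702061, a stretch that covers the whole H3K4me3 cluster. The untreated list had position 10698290 alone between 10685884 and 10701843. The count of 17 was above the 0 h list's median of 12, and the 4 h list, with 89093 positions against 59684, was the longer one. With 1 library per time, a loss of the mark and a position that missed the threshold cannot be told apart.

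Around the Socs1 cluster H3K27me3 was listed at both times. Below it were 3 positions at 0 h and 6 at 4 h. The tallest H3K27me3 position of the window was among them at each time, 10681907 (32) at 0 h and 10682485 (38) at 4 h, 578 bp apart. An H3K4me3 cluster with a count of 11, the lowest of its list, was listed over them at 4 h only, from 10681389 to 10683952. Above the Socs1 cluster were 19 H3K27me3 positions at 0 h, with counts of 9 to 19 and a median of 12. At 4 h there were 28, with counts of 10 to 28 and a median of 15. The tallest there were 10719918 (19) at 0 h and 10710267 (28) at 4 h. The whole H3K27me3 list was also longer at 4 h, with 89093 positions against 59684 at 0 h. Its medians were 12 at 0 h and 13 at 4 h, and no growth of the mark around Socs1 is read from these counts. In the gene order of RefSeq the next genes beyond Socs1 are Tnp2, Prm3, Prm2 and Prm1, followed by Rmi2, a subunit of a DNA repair complex. Tnp2 encodes a transition protein and Prm1 and Prm2 encode protamines, which pack sperm DNA. None of the genes beyond Socs1 was placed on mm8.

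Within that upper stretch, up to the next H3K4me3 cluster, Pol II counts ran from 10 to 37, beside list medians of 17 at 2 h and 19 at 4 h. At 2 h it was listed at 10716352 (11), 10717330 (16) and 10719955 (12), none of which had a position at 0 or 4 h within 500 bp. Near the Jmjd3 pair it was at 10728633 (30), 10729868 (11), 10730410 (10), 10732489 (14) and 10733257 (10) at 2 h. At 4 h it was at 10728657 (37), 10729773 (19) and 10732338 (12). Untreated cells had no Pol II position between 10699067 and 10748686.

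The last promoter-like site of the window was an H3K4me3 cluster that crossed its upper edge, 10747372 to 10750448 at 0 h (count 111) and 10747208 to 10750276 at 4 h (153). Its width differed by 8 bp between the times. Pol II there had counts of 13 at 0 h, 69 at 2 h and 32 at 4 h, at 10748686, 10748859 and 10748779. H3K27me3 had 2 positions inside the cluster at 0 h, with a tallest count of 18, and 2 at 4 h, with a tallest count of 17. The cluster thus held both marks at both times, together with Pol II and a Jmjd3 position. The count of that Jmjd3 position, 9, was the lowest in its list.

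On the Ciita side, lower in coordinate, an H3K4me3 cluster lay in a stretch of H3K27me3 and had no Pol II. The cluster spanned 10400566 to 10404562 at 0 h (3997 bp, count 44) and 10400577 to 10405550 at 4 h (4974 bp, count 57). Both counts were below the median of their lists, which were 78 and 97. The cluster was 977 bp wider at 4 h, nearly all on its upper side, and 9.57% of the cluster pairs widened by at least that much. No Pol II position lay within the 33.2 kb block at any time. The nearest lay 52024 bp from the 0 h cluster at 0 h, 34147 bp at 2 h and 34157 bp at 4 h. The Jmjd3 position lowest in coordinate, 10688466, was in the Socs1 block.

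H3K27me3 in that block numbered 16 positions at 0 h, from 10396925 to 10426973, and 20 at 4 h, from 10396973 to 10430087. Counts ran from 9 to 21 at 0 h, with a median of 10.5, and from 10 to 30 at 4 h, with a median of 15. The list medians were 12 and 13. The tallest position lay inside the H3K4me3 cluster at both times, 10403681 (21) at 0 h and 10403552 (30) at 4 h. In the upper part the tallest were 10421460 (18) and 10415509 (16) at 0 h and 10418822 (22) and 10422394 (19) at 4 h. Of the 16 positions of 0 h, 13 were shared with 4 h, and 3 were not, in a list where 28.3% were not. These 3 lay 507, 543 and 1659 bp from a 4 h position.

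**Figure D3:**
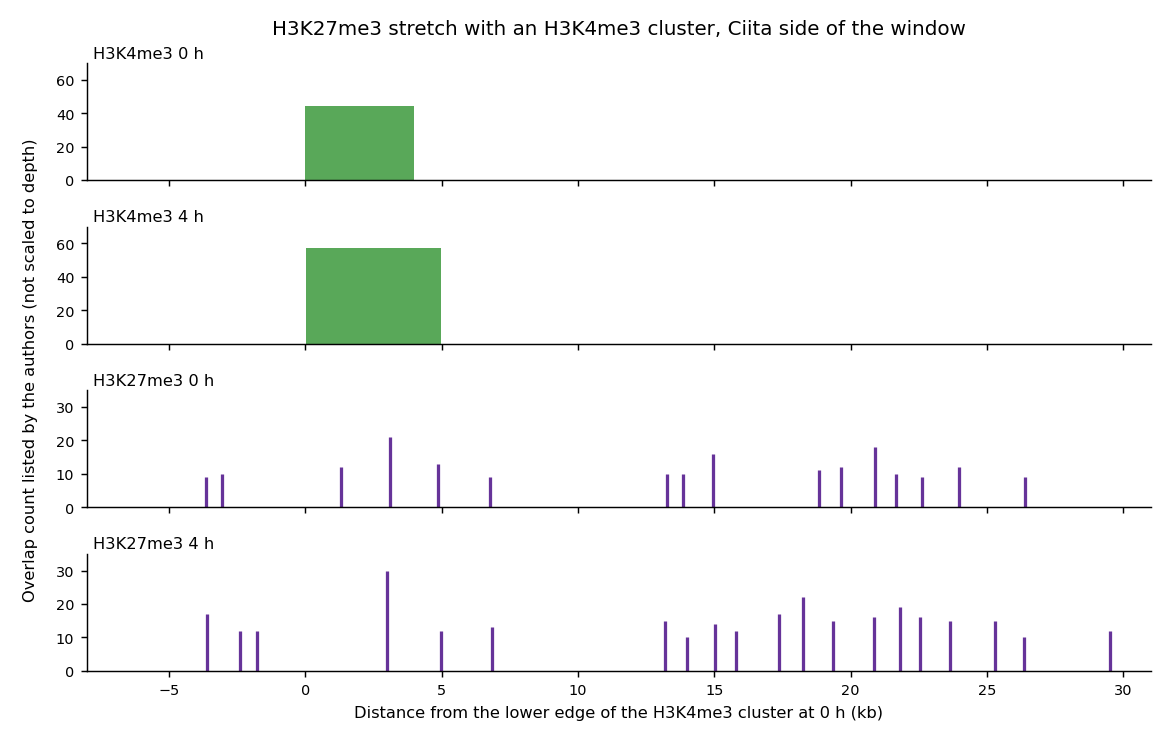
Overlap counts of H3K4me3 clusters (bars) and H3K27me3 positions (lines) at 0 and 4 h in the block on the Ciita side, against the distance in kb from the lower edge of the cluster at 0 h. The tallest H3K27me3 position lies in the H3K4me3 cluster at both times, with counts of 21 and 30.

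Gene bounds on mm8 were not used here, so which feature belongs to Ciita was not settled. In the gene order of GRCm38.p6, coding genes run Tekt5, Nubp1, Tvp23a, Ciita, Dexi, Clec16a and Socs1. Dexi and Clec16a, a regulator of autophagy, are transcribed away from each other, from the minus and the plus strand. The window held 1 place where H3K4me3 clusters nearly touched, and it lay between the Ciita-side block and Socs1. The strands of Tvp23a and Ciita are not in the promoter table, and a match of clusters to genes by order was not tested.

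That double cluster had H3K4me3 counts above the list medians of 78 and 97 in both parts, and the upper part was the taller. It had no H3K27me3, and Pol II was listed in it at every time. At 0 h its parts spanned 10453594 to 10457843 (count 136) and 10457991 to 10460733 (223). At 4 h they spanned 10453807 to 10457307 (131) and 10457506 to 10461600 (268), and the count of 268 ranked 174 of 19631. Pol II in the lower part had counts of 45, 150 and 126 at 0, 2 and 4 h, at 10456586, 10456608 and 10456571. In the upper part they were 17, 72 and 72, at 10459033, 10459026 and 10459060. The positions of a part lay within 37 bp of each other over the 3 times. The Jmjd3 position nearest to any of them lay 229406 bp away.

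The remaining blocks held few and mostly low features. Pol II was listed alone at 10351683 (11, at 4 h), at 10364595 (13, at 4 h) and at 10366419 (42, at 2 h) with 10366409 (50, at 4 h). It was also alone at 10477786 (17, at 2 h) with 10477803 (20, at 4 h), and at 10590189 (13, at 2 h). An H3K4me3 cluster of untreated cells, 10645624 to 10647054 (15), had no counterpart at 4 h. Pol II lay in it at 10646068 (16) at 2 h and 10646306 (11) at 4 h. Pol II position 10660051 (12) was listed at 2 h only. Near 10668367 Pol II was listed at all 3 times, with counts of 14, 10 and 11.

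Summed over the window, 18 of 22 Pol II positions of 2 h had no overlapping position at 0 h (81.8%, exact 95% interval 59.7 to 94.8). The share in the whole list was 49.6%, and nothing is read from this comparison, since it chose the window. At 4 h, 12 of 17 were new against 0 h (70.6%, 44.0 to 89.7), against 45.2% of the list. That interval includes the background, and the 4 h count shares its untreated library with the 2 h count. Of the 5 untreated positions, 1 was lost at 2 h (background 48.2%) and 0 at 4 h (background 43.4%), and the exact interval of the latter reached 52.2%.

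Between the stimulated times, 3 of the 17 Pol II positions of 4 h were new against 2 h (background 32.3%), with counts of 11 to 13. Of the 22 positions of 2 h, 8 were absent at 4 h (background 32.0%), and the tallest of them had a count of 19. Every 2 h position with a count above 19 thus had a counterpart at 4 h. For H3K4me3, 1 of 6 clusters was new at 4 h (background 5.07%) and 1 of 6 was lost (background 13.1%), with counts of 11 and 15. For H3K27me3, 25 of 54 positions were new (46.3%, 32.6 to 60.4), against a background of 51.7%, and 10 of 39 were lost (25.6%, 13.0 to 42.1), against 28.3%. Both H3K27me3 shares are near their background.

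**Figure D4:**
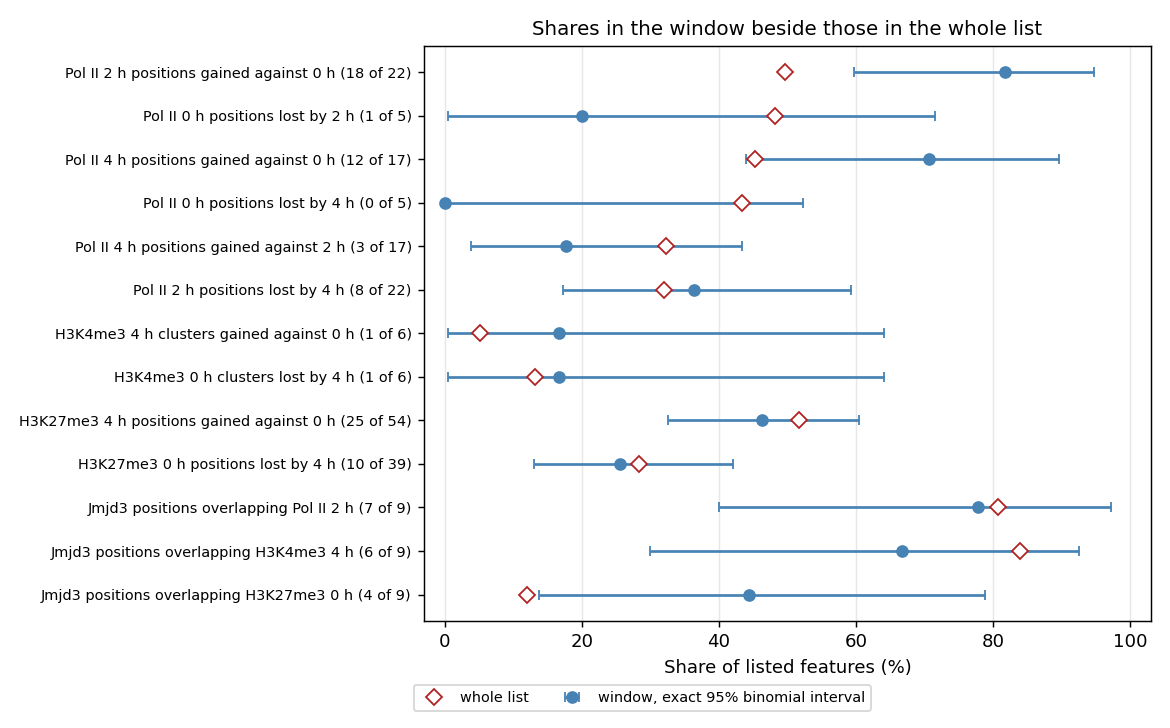
Share in percent of the window's features that were new, lost or overlapping in each comparison (filled points, with exact 95% binomial intervals), beside the share in the whole list (open diamonds). The 2 h Pol II gain, at 81.8% against 49.6%, is the comparison that chose the window.

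Of the 10 lost H3K27me3 positions, 6 lay within 1 kb of a 4 h position, and so did 11 of the 25 new ones for 0 h positions. The matching shares of the whole lists were not computed, so these counts are a description only. The 4 lost H3K27me3 positions beyond 1 kb were 10401893, 10685884, 10698290 and 10728701. The farthest of them from any 4 h position was 10698290, in the Socs1 cluster. The farthest new positions were 10675877 (10), 6030 bp from one of 0 h, and 10690856 (11), 4972 bp from one.

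Sites elsewhere whose lists looked most like Socs1 were found by a rule. Each of 14533 Pol II positions of 2 h, the tallest of its run, was given the tallest feature within 5 kb in each of the 8 lists, as a percentile of that list, and the distance between the 8 percentiles was taken. The Pol II part uses the values that chose the locus, and the order is a description. The nearest were position 3040862 on chromosome 17 (distance 19.4 percentile points), 96091220 on chromosome 12 (21.6), 43692245 on chromosome 10 (21.7), 37892986 on chromosome 7 (23.6) and 73250604 on chromosome 15 (24.5). Their tallest Pol II counts at 2 h were 157, 133, 177, 231 and 169, all below the 392 of Socs1. At 0 h these counts were 157, 41, 39, 42 and 55, beside 66. The chromosome 17 site thus had the same count at 0 and 2 h, unlike Socs1 and the other sites. Jmjd3 counts of the 5 sites were 26, 22, 19, 34 and 18, beside 35. All 5 had H3K4me3 and H3K27me3 within 5 kb at both times, which follows from the rule. A list without a feature counted as percentile 0, and Socs1 had a percentile of at least 67.2 in each of these lists. Its H3K27me3 value at 4 h came from position 10703536 (20), which lay 4970 bp away and outside the Socs1 H3K4me3 cluster. Inside that cluster no H3K27me3 position was listed at 4 h. With features within 2 kb, none of the 5 sites above was among the nearest 5. The 4 h H3K27me3 position nearest to the Socs1 position lay 3495 bp away. Within 2 kb, Socs1 thus counted as percentile 0 in that list.

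**Figure D5:**
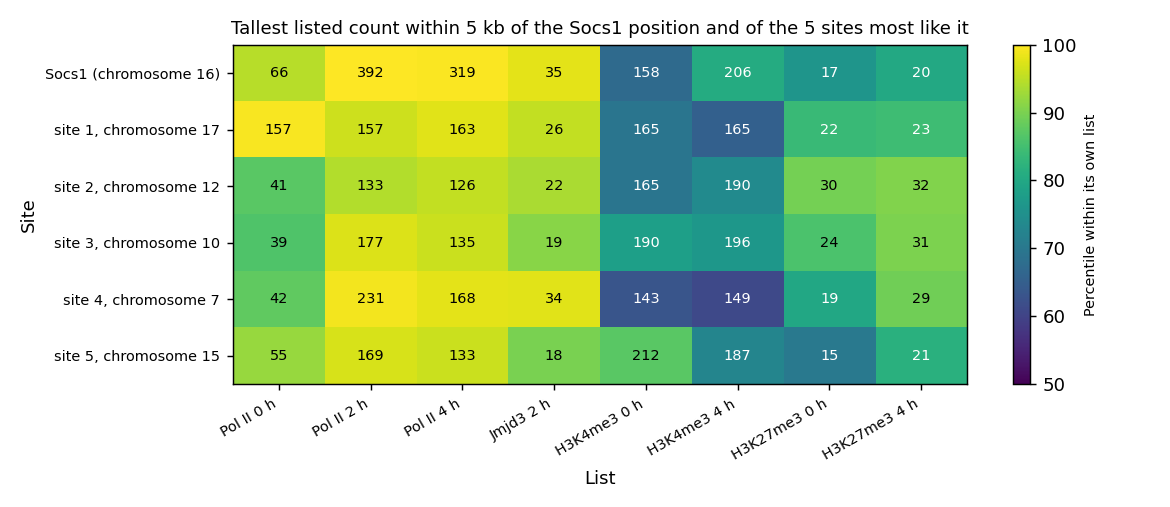
Tallest overlap count within 5 kb in each list (numbers in the cells) and its percentile within that list (colour) for the Socs1 position and the 5 sites nearest to it by the 8 percentiles. Socs1 has the tallest Pol II of the 6 sites at 2 and 4 h, 392 and 319, and at 0 h the chromosome 17 site has the tallest, 157.

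Values just outside the window are given for its edges. Within 10 kb beyond the upper edge, Pol II was at 10752121 (47), 10754533 (11), 10756110 (17), 10757544 (90) and 10758890 (52) at 2 h. At 4 h it was at 10752063 (52), 10755943 (12), 10757549 (84) and 10758157 (83), and at 0 h no position was listed there. A Jmjd3 position, 10757508 (12), lay there in H3K4me3 clusters of 0 h (10756362 to 10758601, count 50) and 4 h (10756739 to 10758749, count 23). Just inside the lower edge was Pol II position 10351683. Below that edge, the nearest were Pol II positions, 10347255 (11) at 0 h, 10347287 (31) at 2 h and 10349877 (12) at 4 h.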

How the data were processed

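The deposited files are 1 peak list per library, whose value is an overlap count, a signal that the authors listed per peak, per the file headers, with no scaling stated. Jmjd3, H3K27me3 and Pol II features are single positions and H3K4me3 features are clusters. The build is mm8, per the submitters' processing notes; aligner, peak caller, threshold and control: not given in the sources used here. Lowest listed counts were 9 to 11. Each library's antibody and time were taken from its title.

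Positions received 500 bp windows, and features sharing at least 1 bp counted as overlapping. Clusters crossing the edge of the locus were included. The members, gene names, motifs and rules were chosen with earlier results of these data known. Named were every Jmjd3 position and H3K4me3 cluster, the 3 tallest features of each list and each block; the other Pol II and H3K27me3 positions were added after their values were seen. Promoters and gene order came from RefSeq tables (GRCm38.p6), Socs1 matching and Ciita having no promoter there. Motifs were searched on both strands; the result for 1 further motif is not reported here.

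Alternatives were matching within 1 kb, overlap of 50% of the shorter feature, features above their list's median, lists of equal length (ties broken at random, seed 20), a window 100 kb wider on each side, block gaps of 5 and 20 kb and a likeness radius of 2 kb. Scripts ran in Python 3.11.15 with pandas 2.3.3, numpy 2.4.6, matplotlib 3.10.9 and scipy 1.17.1. In simulated data, 1200 of 1200 planted overlaps among 4000 features were recovered, and 5 pairs of lists gave the same counts with bedtools 2.31.1.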

Additional observations from a re-analysis of the deposited data

How the results depend on the processing

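Most counts of the window stayed within 1.5 times under the alternatives (42 of 68). With positions within 1 kb counted as shared, 0 Pol II positions were lost at 2 h, and 14 H3K27me3 positions were new and 4 lost. With overlap of 50% of the shorter feature, 5 of 17 Pol II positions of 4 h were new against 2 h. With features above their list's median, 8 of 10 Pol II positions were new at 2 h and 7 of 10 at 4 h. Between 2 and 4 h, 1 of 10 was new and 1 of 10 was lost. For H3K4me3, 0 of 4 clusters were new and 0 of 4 lost, and 4 of 15 H3K27me3 positions were lost. Of the 6 Jmjd3 positions left, 3 overlapped H3K4me3 and 2 overlapped H3K27me3. Whole-list shares were computed for the main setting only. In lists of equal length, the longer list of each pair keeps as many of its tallest features as the shorter one holds. There 2 of 5 Pol II positions were lost at 2 h and 14 of 41 H3K27me3 positions were new. For Jmjd3 this leaves 4398 features of the other list, and 3 of 9 Jmjd3 positions overlapped Pol II. No H3K27me3 position of 0 h in the window ranked that high, so the 0 of 9 overlapping H3K27me3 was fixed in advance. In the wider window, 6 of 14 untreated Pol II positions were lost at 2 h and 5 of 14 at 4 h. Between 2 and 4 h, 5 of 27 were new and 13 of 35 were lost. For H3K4me3, 2 of 10 clusters were lost, and H3K27me3 had 39 of 83 new and 19 of 63 lost. A block gap of 20 kb gave 5 blocks. Within 2 kb, 0 of the 5 most similar sites were shared. At that radius Socs1 had no H3K27me3 position of 4 h, which set its percentile in that list to 0 by construction. How much of the change in sites came from this was not tested. Shorter lists hold fewer features and a wider window holds more, by construction; the cause of the other changes was not tested. No paired analysis was possible because each group has 1 library. A feature not listed may lie under the authors' threshold, and the depth of each library is unknown.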
